A study of Homo sapiens with 11 samples.

Results

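Nemo-like kinase (NLK) is a serine/threonine kinase of the MAP kinase family. Here 8 transcription regulators reported as its substrates were followed at the mRNA level. These were TCF7, TCF7L1, TCF7L2 and LEF1 (the TCF/LEF family), FOXO1, FOXO3 and FOXO4 (of the FOXO family), and YAP1. They were chosen by symbol, as reported substrates, and are 8 of the 59087 genes counted in each library. RNA was sequenced from 11 libraries of the estrogen receptor positive human breast cancer lines BT483 and T47D-TamR, 1 library per group. T47D-TamR is a tamoxifen-resistant derivative of T47D, made by passage in tamoxifen and propagated in it at 10-7 M. For BT483 the labels name no drug in the growth medium. All cells were first deprived of estrogen for 48 h. In the siRNA arm, each line received for 72 h and at 10 nM a non-targeting control siRNA pool, NLK siRNA type 1, NLK siRNA type 2, or the control pool with 0.5 µM tamoxifen, an antiestrogen. In the drug arm, which only T47D-TamR had, cells received DMSO (the solvent), 0.5 µM VX-702 (an inhibitor of p38 MAP kinase that the labels present as a drug against NLK), or DMSO with 0.5 µM tamoxifen; how long is not stated. This gave 4 BT483 and 7 T47D-TamR libraries.

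The TCF/LEF factors bind DNA at Wnt target genes, where they recruit β-catenin as activators or Groucho/TLE proteins as repressors, and NLK is known to phosphorylate them and to lower their activity with β-catenin. FOXO factors switch on genes of growth arrest, stress defence and insulin signalling when they are nuclear, and kinases such as AKT and NLK drive them out of the nucleus. YAP1 is the coactivator at the end of the Hippo pathway: LATS kinases hold it in the cytoplasm, and NLK is known to favour its stay in the nucleus. All of this concerns the proteins, and the libraries measured only the mRNA of the substrates and of their target genes.

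NLK mRNA checked the labels. Levels are given in CPM, counts scaled by library size and TMM factors. The control, type 1 and type 2 libraries of BT483 held 30.0, 8.52 and 5.42 CPM of NLK, those of T47D-TamR 29.3, 10.3 and 12.2 CPM, and the remaining 5 libraries 28.1 to 34.5 CPM. All 4 knockdown libraries lay below all 7 others, with a fitted log2 difference of -1.75 (SE 0.21, edgeR adjusted p = 0.0308). Library totals ran from 14637083 to 26915863 counts, so that 3 counts, the floor used here, equal 0.111 to 0.205 CPM of the library total, without the TMM factors. All 9 luminal epithelial markers (among them ESR1, KRT8, GATA3 and EPCAM) were at 1 CPM or more in every library, with sums of 14430 to 16500 CPM in BT483 and 5962 to 8628 CPM in T47D-TamR. Of 8 leukocyte markers at most 1 reached 1 CPM, and PTPRC, which defines leukocytes, was at or below 0.0793 CPM throughout. Basal markers summed to 7.43 to 17.3 CPM in BT483 and 57.5 to 148.4 CPM in T47D-TamR, mesenchymal markers to 11.8 to 14.5 and 52.0 to 76.1 CPM, and endothelial markers to 1.75 to 3.49 and 0.0383 to 0.397 CPM. Mesenchymal markers at 1 CPM or more numbered 5, 6 and 5 of 8 in the control, type 1 and type 2 libraries of T47D-TamR. Each of its other libraries had 1, and each BT483 library had 2. The basal sums of T47D-TamR were 92.7, 127.2, 148.4 and 102.9 CPM in the siRNA arm (control, type 1, type 2, tamoxifen). In its drug arm they were 67.3, 106.3 and 57.5 CPM (DMSO, VX-702, tamoxifen). The sums run along with the line, and the basal sums and mesenchymal counts also with groups within T47D-TamR. Their part in any comparison was not tested. Values are whole-culture averages, in which fewer cells expressing a gene and less RNA per cell cannot be told apart.

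Both lines expressed the same leading TCF/LEF genes, while FOXO3 and FOXO4 stood in different proportions and FOXO1 at different levels. Per transcript length (TPM, a unit in which genes can be compared), YAP1 was the highest of the 8 in both lines, with a median of 35.0 TPM in BT483 (range 27.1 to 40.4, n = 4) and 71.6 TPM in T47D-TamR (56.0 to 78.2, n = 7). BT483 then had TCF7L1 (25.4 TPM), TCF7L2 (22.3), FOXO4 (18.4), FOXO3 (11.6), FOXO1 (3.72), TCF7 (0.433) and LEF1 (0.218). In BT483 the ranges of YAP1, TCF7L1 (19.0 to 27.6 TPM), TCF7L2 (19.4 to 27.2) and FOXO4 (14.04 to 25.1) overlapped from each neighbour to the next, as did those of TCF7 (0.323 to 0.510) and LEF1 (0.0202 to 0.336), so these are not ordered beyond their spread. T47D-TamR had FOXO3 (36.6 TPM), TCF7L1 (26.8), TCF7L2 (9.88), FOXO4 (5.19), TCF7 (0.586), FOXO1 (0.280) and LEF1 (0.0198) after YAP1. There the ranges of FOXO3 (27.1 to 41.2 TPM) and TCF7L1 (19.3 to 54.2) overlapped, as did TCF7L2 (7.49 to 10.8) with FOXO4 (2.94 to 7.62) and TCF7 (0.347 to 0.742) with FOXO1 (0.232 to 0.757). FOXO4 therefore made up 48.7 to 58.8% of the summed FOXO1, FOXO3 and FOXO4 TPM in BT483 libraries and 8.09 to 17.1% in T47D-TamR. FOXO3 made up 30.3 to 41.4% and 82.2 to 89.8%. FOXO6, a further family member at 17.7 to 49.0 CPM over the libraries, is not in this sum.

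**Figure D1:**
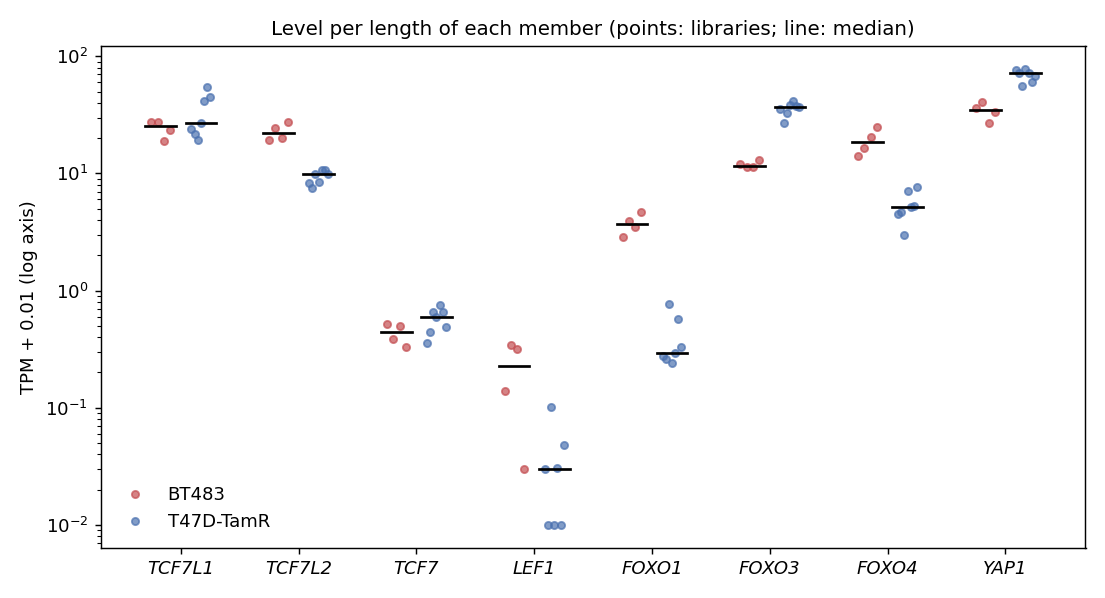
Level per length of the 8 genes in each library (y axis, TPM plus a small offset so that values of 0 can be drawn, log axis), with BT483 in red and T47D-TamR in blue; points are libraries and lines are medians. FOXO1, FOXO4 and TCF7L2 lie higher in BT483 and FOXO3 and YAP1 in T47D-TamR, without overlap, while TCF7L1 and TCF7 overlap.

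Between the lines, 6 of the 8 genes differed past an adjusted p of 0.05 (edgeR, 4 BT483 against 4 T47D-TamR siRNA libraries, blocked by condition). The lines differ at most genes, and 70.7% of the 21990 genes tested passed the same threshold (35.6% higher and 35.1% lower in BT483), so this share is near the background. TCF7L2, LEF1, FOXO1 and FOXO4 were higher in BT483, FOXO3 and YAP1 higher in T47D-TamR, and TCF7 and TCF7L1 did not pass. The labels do not say that libraries came from separate cultures, so here and below a p-value reflects no more than the spread among these libraries, which may be technical.

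TCF7L2 is the TCF family member best known from colon and pancreatic islets. Its BT483 libraries (control siRNA, type 1, type 2, tamoxifen) held 43.1, 53.0, 45.3 and 63.1 CPM. The siRNA arm of T47D-TamR, in the same order, held 20.7, 20.4, 23.4 and 20.8 CPM, and the drug arm (DMSO, VX-702, tamoxifen) 25.7, 28.7 and 25.4 CPM. Every BT483 library lay above every T47D-TamR library, and the fitted log2 difference was 1.25 (SE 0.14, adjusted p = 1.07e-05). TCF7L1, which acts mostly as a repressor of Wnt targets, stood at 39.8, 39.5, 28.0 and 35.8 CPM in BT483 and at 39.4, 38.7, 30.0 and 43.6 CPM in the siRNA arm of T47D-TamR. In the siRNA arm the lines overlapped, with a difference of -0.09 (SE 0.12, adjusted p = 0.537). The drug arm of T47D-TamR, which is not in this fit, held 66.1, 94.99 and 75.1 CPM, above every BT483 library.

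TCF7 and LEF1, the TCF/LEF genes typical of lymphocytes, were close to the limit of these libraries. TCF7 held 19 to 45 counts in BT483 (1.12 to 1.70 CPM) and 33 to 67 counts in T47D-TamR (1.31 to 2.68 CPM). The lines overlapped, and the difference was -0.41 (SE 0.29, adjusted p = 0.226). TCF7 exons overlap those of SKP1, a ubiquitin ligase subunit on the opposite strand with 101.5 to 164.4 CPM, and since the strand setting of the counting is not given, reads of SKP1 within the TCF7 counts cannot be told apart. LEF1 had 4, 9, 15 and 1 counts in BT483 (control, type 1, type 2, tamoxifen) and 1, 0, 4 and 0 in the T47D-TamR siRNA arm, followed by 1, 0 and 2 in the drug arm. The BT483 library with tamoxifen lay within the T47D-TamR range, and it and 6 of the 7 T47D-TamR libraries held fewer counts than the floor of 3. The line difference of LEF1 passed (adjusted p = 0.0152) but did not without either line's type 1 library (adjusted p = 0.11 and 0.0939).

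FOXO1, the main FOXO factor of insulin-regulated metabolism, was the gene of the 8 that differed most in fold between lines. It stood at 6.002, 8.13, 7.43 and 10.2 CPM in BT483 (control, type 1, type 2, tamoxifen), that is 106 to 273 counts. In T47D-TamR it stood at 0.635, 0.644, 1.69 and 0.542 CPM in the siRNA arm and 0.641, 1.42 and 0.767 CPM in the drug arm, on 14 to 39 counts. The lines did not overlap, and the log2 difference was 3.24 (SE 0.32, adjusted p = 3.97e-06). FOXO4, a smaller and widely expressed family member, stood at 16.0, 18.3, 23.4 and 29.7 CPM in BT483, against 5.83, 6.44, 3.56 and 9.03 CPM in the siRNA arm and 6.41, 7.16 and 9.93 CPM in the drug arm of T47D-TamR. These too did not overlap, with a difference of 1.83 (SE 0.22, adjusted p = 1.68e-05).

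FOXO3, a FOXO factor linked to stress resistance and cell death, ran the other way. It stood at 30.2, 27.8, 28.8 and 34.1 CPM in BT483, at 101, 83.8, 88.0 and 107.1 CPM in the siRNA arm of T47D-TamR, and at 113.3, 114.3 and 106.1 CPM in its drug arm. The difference was -1.65 (SE 0.11, adjusted p = 1.34e-07), and within the 4 shared conditions it stayed between -1.74 and -1.59. FOXO3B, a near-identical copy listed at 5.30 to 19.4 CPM, may share reads with FOXO3, which makes the FOXO3 levels uncertain to that extent. YAP1 stood at 75.7, 82.2, 57.1 and 72.8 CPM in BT483, at 179.7, 182.5, 123.9 and 181.2 CPM in the siRNA arm and at 163.5, 151.3 and 163.2 CPM in the drug arm of T47D-TamR. The difference was -1.21 (SE 0.10, adjusted p = 1.04e-06). In all, 5 of the 8 genes showed no overlap between the 4 BT483 and the 7 T47D-TamR libraries, which 60.7% of all genes tested also showed. Over the siRNA libraries alone it was the same 5, against 65.0% of all genes.

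**Figure D2:**
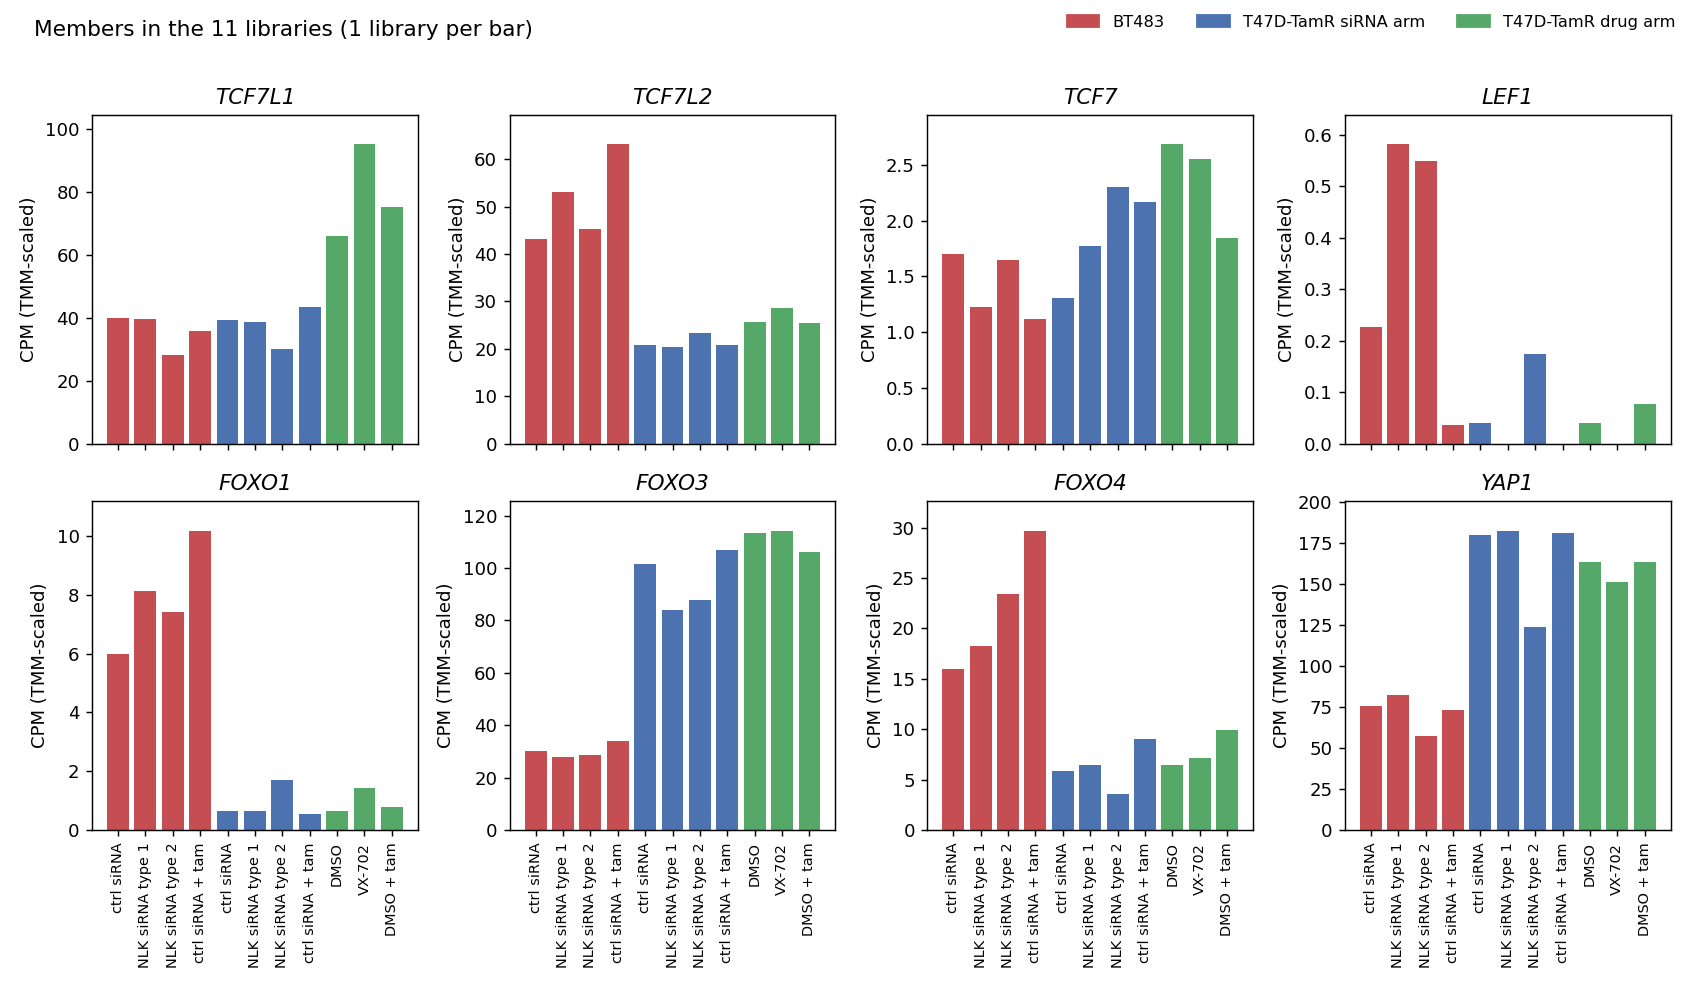
CPM of each of the 8 genes in the 11 libraries (y axes start at 0 and differ between genes; 1 bar is 1 library, so there are no error bars). TCF7L1 is highest in the 3 drug-arm libraries (66.1 to 94.99 CPM), YAP1 and TCF7L1 are lowest with type 2 among the siRNA libraries of each line, and FOXO4 is higher with tamoxifen in each of the 3 pairs.

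NLK knockdown gave no difference past the threshold in the mRNA of the 8 substrates. With both siRNAs and both lines in 1 fit, 0 of 8 passed an adjusted p of 0.05 in edgeR, against 0.00416% of the 24023 genes tested, and 0 had an unadjusted p under 0.05, against 5.54% of all genes. DESeq2 and limma also called 0 of the 8, but DESeq2 called few of all genes and limma 0, so this says little about the 8. Without the BT483 type 1 library, TCF7L1 stood at -0.35 (unadjusted p = 0.036, adjusted p = 0.665) and YAP1 at -0.34 (unadjusted p = 0.0454, adjusted p = 0.695), and without the BT483 control library FOXO3 stood at -0.35 (unadjusted p = 0.0231, adjusted p = 0.501). The fitted log2 differences of the well-expressed genes were small: -0.19 for TCF7L1 (SE 0.15, adjusted p = 0.896), 0.08 for TCF7L2 (SE 0.15, 0.957), -0.21 for FOXO3 (SE 0.12, 0.88), 0.08 for FOXO4 (SE 0.22, 0.978) and -0.17 for YAP1 (SE 0.16, 0.909). FOXO1 had a difference of 0.54 (SE 0.36, adjusted p = 0.88) and TCF7 of 0.08 (SE 0.33, 0.984), and for LEF1 the counts were too few for a fold. The knockdown difference between the lines passed for 0 of 8 as well, where 0.0% of all genes passed and 3.06% had an unadjusted p under 0.05, a level that 0 of the 8 reached.

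Library by library, the 2 siRNAs share 1 control library in each line, so their values are given side by side. FOXO1 stood at 135.5% of control with type 1 (95% interval 103.8 to 177.1, which covers counting error only, as all such intervals here do) and 123.7% with type 2 (97.4 to 158.0) in BT483, and at 101.5% (47.5 to 216.9) and 266.8% (145.7 to 511.4) in T47D-TamR. Its highest ratio thus rests on 39 counts against 16. FOXO3 stood at 92.0% and 95.2% in BT483, where both intervals include 100%, and at 82.6% (78.0 to 87.6) and 86.7% (81.8 to 91.9) in T47D-TamR. FOXO4 went opposite ways with type 2, at 146.6% of control in BT483 (127.3 to 169.3) and 61.1% in T47D-TamR (46.0 to 80.5), and stood at 114.4% and 110.5% with type 1, with intervals that include 100%. Over both siRNAs the difference between the lines in FOXO4 was 0.61 (SE 0.44, adjusted p = 1), and for type 2 alone it was not tested. TCF7, on 19 to 53 counts, stood at 72.2% (38.4 to 132.5) and 96.9% (59.7 to 159.3) in BT483 and at 135.4% (84.2 to 219.4) and 175.8% (111.7 to 280.3) in T47D-TamR, for type 1 and type 2. TCF7L2 with type 1 stood at 123.0% of control in BT483 (111.3 to 135.9) and 98.2% in T47D-TamR (86.8 to 111.2). With type 2 it stood at 105.0% in BT483 (95.9 to 115.1) and 112.6% in T47D-TamR (99.65 to 127.2).

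**Figure D3:**
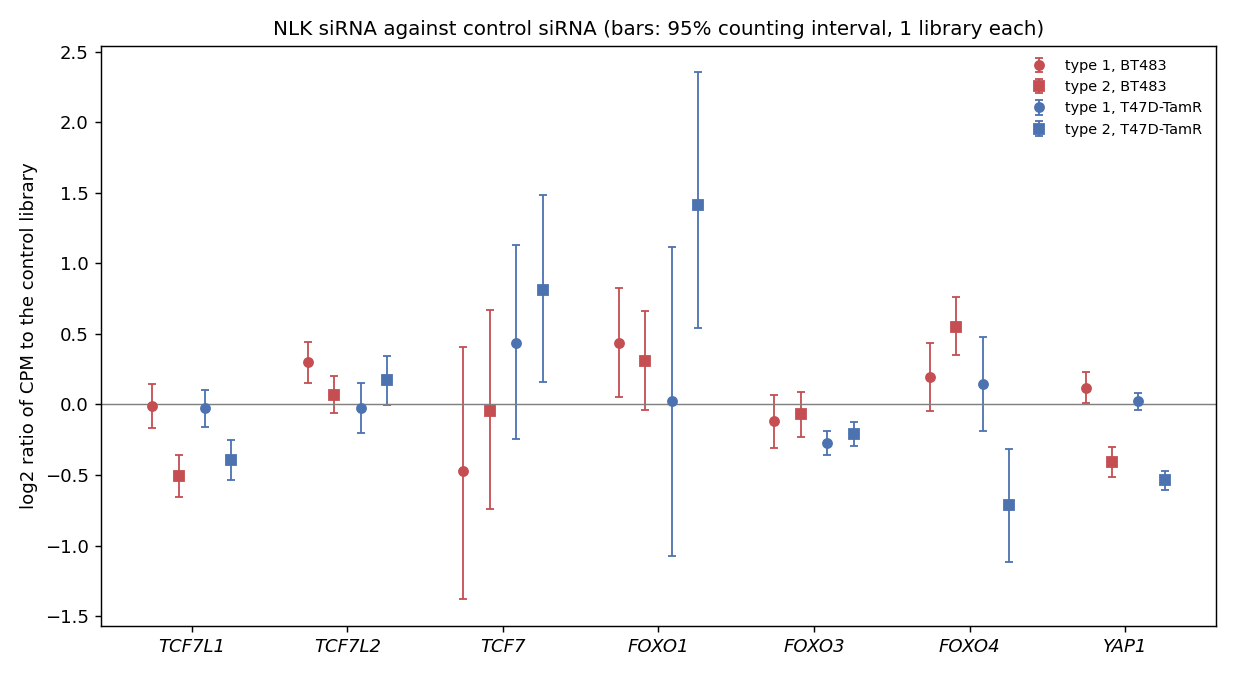
log2 ratio of CPM in each NLK siRNA library to the control siRNA library of its line (y axis), for type 1 (circles) and type 2 (squares) in BT483 (red) and T47D-TamR (blue); bars are 95% counting intervals for 1 library against 1, and the 2 siRNAs of a line share their control. YAP1 and TCF7L1 lie below 0 with type 2 in both lines and close to 0 with type 1. LEF1 is left out because of its low counts.

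Of the 8 genes, YAP1 and TCF7L1 had the smallest p-values for a difference between the siRNAs, though neither passed the threshold in edgeR. YAP1 was at 69.4% of its type 1 level with type 2 in BT483 (64.4 to 74.8) and at 67.9% in T47D-TamR (64.8 to 71.2). TCF7L1 was at 71.0% (63.7 to 79.0) and 77.6% (70.3 to 85.7). For both genes the type 2 library was the lowest of the 4 siRNA libraries in each line, a pattern that 7.79% of all genes tested showed. The fitted differences, type 2 minus type 1, were -0.54 for YAP1 (SE 0.13, adjusted p = 0.0908) and -0.43 for TCF7L1 (SE 0.15, adjusted p = 0.313).

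The siRNA comparison called 0 of the 8 in edgeR, against 0.47% of all genes, and 2 of 8 had an unadjusted p under 0.05, against 9.12%. DESeq2 called YAP1 (log2 difference -0.55, adjusted p = 0.00861), and so did edgeR without the BT483 library with tamoxifen (adjusted p = 0.034). Against control siRNA, a comparison added after the data were seen, YAP1 differed by -0.47 with type 2 (adjusted p = 0.113) and by 0.07 with type 1 (adjusted p = 0.999), and TCF7L1 by -0.42 (adjusted p = 0.242) and 0.01 (adjusted p = 0.999). Type 2 called 0.945% of all genes against control and type 1 0.00416%. FOXO3 did not differ between the siRNAs past the threshold (0.06, SE 0.14, adjusted p = 0.945).

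Small interfering RNAs can also act on mRNAs that pair only with the seed, bases 2 to 8 of the guide strand. The guides below are the reverse complements of the strands listed in the protocol, with the seed in capitals. They are shown because YAP1 lay lower with type 2 than with type 1. That type 1 and type 2 are the protocol's siRNAs 1 and 2 is read from the numbering alone.
NLK siRNA 1 guide: uCUUGGAUcuguuacugac
NLK siRNA 2 guide: uAGUCUUCaaauucagcuc
A match to the seed of siRNA 1 (AUCCAAG in the mRNA) occurred in the 3′ untranslated region of 0 of the 8 genes, and a match to that of siRNA 2 (GAAGACU) occurred once in YAP1 and once in FOXO3. The 2 matches are shown as DNA, 5′ to 3′ on the mRNA strand, with the match in capitals.
YAP1 match: aaaccaaggctGAAGACTgttttactttc
FOXO3 match: aagtgatatatGAAGACTcttttctttgc
The match in YAP1 lies in exon 9 of 9 (chr11:102230465-102230471, plus strand) and that in FOXO3 in exon 4 of 4 (chr6:108681265-108681271, plus strand; both GRCh38, GENCODE 29, longest 3′ untranslated region per gene, mRNA strand only). TCF7L1, with 926 bases of 3′ untranslated region, held 0 matches. Of 14839 genes tested with such a region, 12.3% held a match for siRNA 2 and 9.73% for siRNA 1, and YAP1 and FOXO3 have longer regions (3483 and 4982 bases) than the median gene (1297 bases). Genes with a siRNA 2 match had a median type 2 minus type 1 difference of -0.09 and genes without one of 0.02. For siRNA 1 the medians were 0.06 and 0.01. A match describes letters only, and whether these positions are bound was not tested.

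Tamoxifen was accompanied by higher FOXO4 mRNA in all 3 pairs, which have separate controls. In BT483 it stood at 29.7 CPM with tamoxifen and 16.0 without (186.0% of control, counting interval 162.2 to 213.9). In the T47D-TamR siRNA arm it stood at 9.03 and 5.83 CPM (154.9%, 125.4 to 191.7), and in the drug arm at 9.93 and 6.41 CPM (155.0%, 126.8 to 190.0). The fitted log2 difference was 0.72 (SE 0.22), with an unadjusted p of 0.00547 and an adjusted p of 0.399 in edgeR, so it did not pass the threshold over all genes. Without the BT483 control library it was 0.51 (unadjusted p = 0.0684). FOXO4 was 1 of 8 with an unadjusted p under 0.05, against 6.62% of all genes, and 1 of 8 higher in all 3 pairs, against 16.3%. The call at an adjusted p of 0.05 was made for 0 of 8, against 0.0416%.

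The other 7 genes had adjusted p-values of 0.902 to 0.999 with tamoxifen. YAP1 stood at 96.2% of control in BT483 and 100.8% and 99.8% in the T47D-TamR pairs, with intervals that all include 100% and a fitted difference of -0.01 (SE 0.16). TCF7L1 stood at 89.9% in BT483 and 110.6% and 113.7% in T47D-TamR, and FOXO3 at 112.8%, 105.6% and 93.7%. TCF7, on 30 to 67 counts, stood at 65.9% (38.4 to 113.2) in BT483, 165.8% (106.0 to 263.2) in the T47D-TamR siRNA arm and 68.6% (46.3 to 100.9) in the drug arm. In BT483 alone, FOXO1 stood at 169.7% of control (135.2 to 214.5) and TCF7L2 at 146.4% (134.3 to 159.6). In T47D-TamR, FOXO1 stood at 85.5% (38.6 to 186.9) and 119.7% (58.9 to 247.0), on 14 to 20 counts, and TCF7L2 at 100.3% (88.8 to 113.4) and 98.9% (88.6 to 110.4). The difference in the tamoxifen response between lines was 0.56 for TCF7L2 (SE 0.30, adjusted p = 0.654) and 0.73 for FOXO1 (SE 0.69, adjusted p = 0.848). That test called 0 of 8, against 0.691% of all genes, and 0 of 8 had an unadjusted p under 0.05, against 8.7%, so a difference between the lines was not detectable here.

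**Figure D4:**
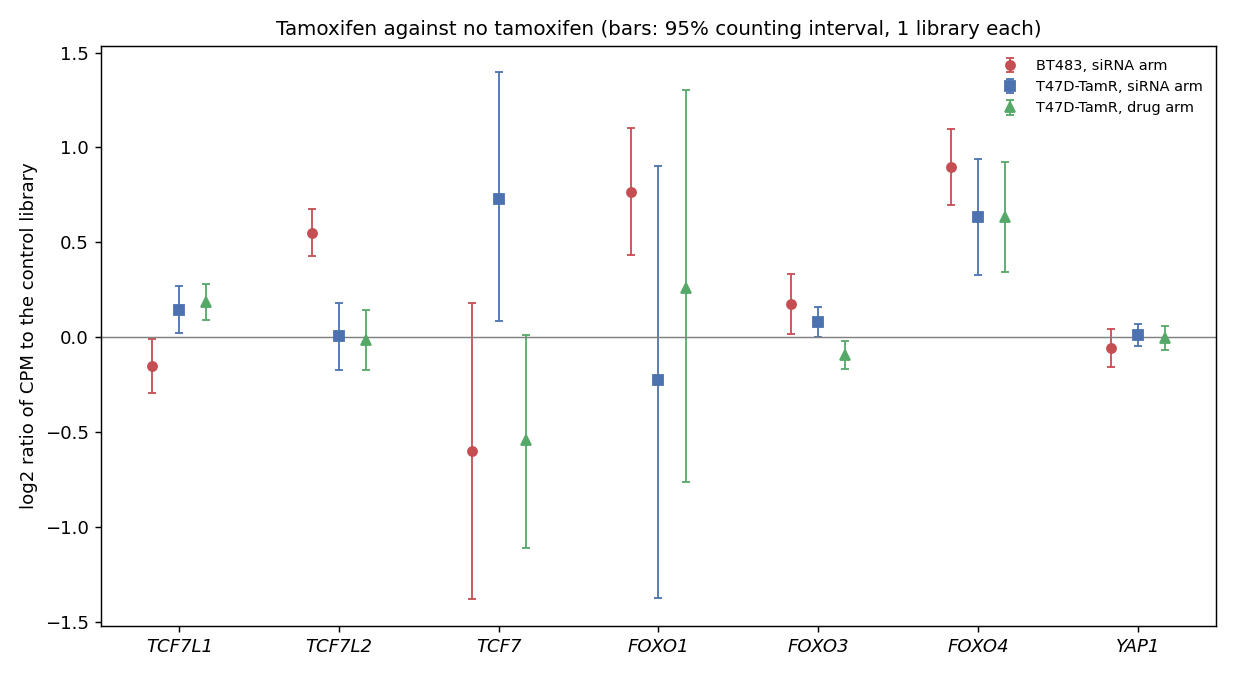
log2 ratio of CPM with tamoxifen to CPM without it (y axis) in BT483 (circles), the siRNA arm of T47D-TamR (squares) and its drug arm (triangles); bars are 95% counting intervals for 1 library against 1. FOXO4 lies above 0 in all 3 pairs, the intervals of FOXO1 and TCF7L2 exclude 0 in BT483 and include it in both T47D-TamR pairs, and those of YAP1 include 0 in all 3.

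In the drug arm, TCF7L1 was the gene of the 8 whose levels stood out. DMSO, VX-702 and DMSO with tamoxifen had 66.1, 94.99 and 75.1 CPM, and all 8 siRNA-arm libraries of both lines had 28.0 to 43.6 CPM. VX-702 stood at 143.8% of DMSO for TCF7L1 (134.9 to 153.3), 1 library against 1 and without a test. YAP1 stood at 92.5% (88.5 to 96.8), TCF7L2 at 111.8% (100.2 to 124.7), FOXO4 at 111.8% (89.6 to 139.6) and FOXO3 at 101.0% (95.8 to 106.4). Of the 5 genes that averaged 5 CPM or more, 0 were past 1.5-fold, against 5.31% of all such genes. FOXO1, below that level, had 34 counts against 16 (222.3%, 119.4 to 431.3). NLK itself was at 85.8% of DMSO with VX-702 (77.4 to 95.2).

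Control siRNA and DMSO cultures of T47D-TamR also differed at TCF7L1. The control siRNA library stood at 59.6% of the DMSO library (55.1 to 64.5), and with tamoxifen in both it stood at 58.0% (53.8 to 62.4). It was the 1 of 5 genes past 1.5-fold in each pair, where 4.05% and 3.73% of all genes were past it and 1.24% were so the same way in both. TCF7L2 stood at 80.8% and 82.0%, FOXO4 at 91.0% and 90.9%, YAP1 at 109.9% and 111.1%, and FOXO3 at 89.6% and 101.0%. TCF7, below 5 CPM, stood at 48.8% (31.1 to 75.1), on 33 counts against 67, and at 117.9% (78.8 to 177.1) with tamoxifen. An edgeR contrast of the arms, added after the data were seen, gave TCF7L1 a log2 difference of -0.79 (SE 0.17, unadjusted p = 0.000418, adjusted p = 0.264), and called 0.0333% of all genes. Transfection and whatever else differed between the arms, such as time in treatment, cannot be told apart. The VX-702 comparison and the first control siRNA comparison share the DMSO library.

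The target genes and partners of the 8 factors were taken as 6 lists, of 19 to 29 genes each. With knockdown and with tamoxifen, edgeR called 0 genes of any list, against 0.00416% and 0.0416% of all genes, so 0 is near the background. In each fit 5 of 27 FOXO targets, in both directions, had an unadjusted p under 0.05 (edgeR), against 5.54% and 6.62% of all genes. The other lists had 0 to 3 such genes each with knockdown and 0 or 1 with tamoxifen. In the knockdown fit 53.4% of all genes had a positive difference, with a median of 0.02. Of 20 Wnt/β-catenin targets tested, 15 had a positive difference (median 0.21), and of 20 TCF/LEF partners and co-repressors 15 did (median 0.14). YAP/TEAD targets had 13 of 19 (median 0.07), FOXO targets 15 of 27 (median 0.01), Hippo genes and YAP partners 12 of 22 (median 0.04) and FOXO regulators 10 of 19 (median 0.00). The Wnt target list includes TCF7 and LEF1 themselves.

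By library, the list members with an average log2 CPM of at least 1 did not all lie to the same side. Of 13 Wnt targets, 5 lay above control with type 1 in BT483 and 9 with type 2, and 10 did with either siRNA in T47D-TamR. Of 25 FOXO targets, 18 and 19 lay above control in BT483 and 6 and 11 in T47D-TamR. Over all such genes, the share above control was 48.5% and 49.6% in BT483 and 56.1% and 53.8% in T47D-TamR, and the siRNAs of a line share their control.

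**Figure D5:**
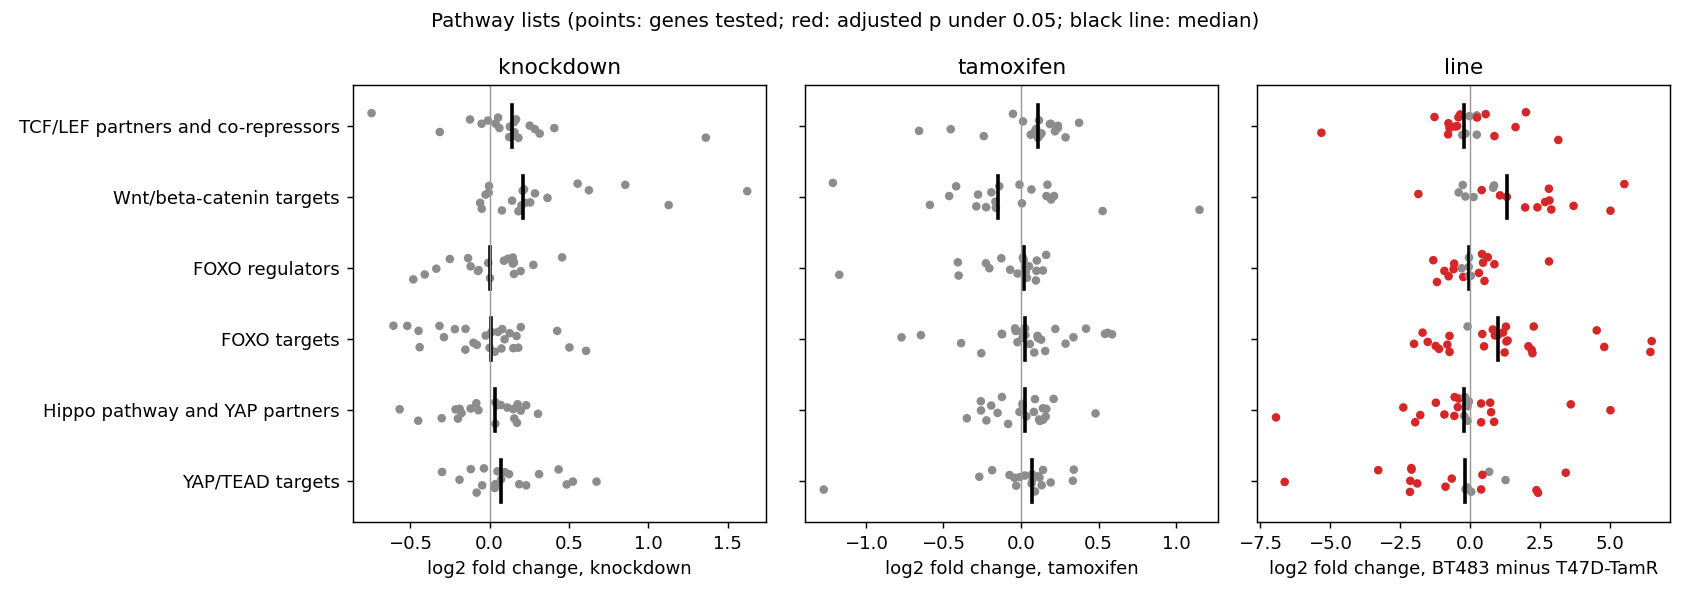
Fitted log2 differences of the genes in the 6 lists for knockdown (left), tamoxifen (middle) and line (right, BT483 minus T47D-TamR); points are genes, red points passed an adjusted p of 0.05 and black lines are medians. All points are grey for knockdown and tamoxifen, and most are red for line, on both sides of 0.

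Among Wnt targets with an average log2 CPM of at least 1, which leaves out LEF1, the highest knockdown values were those of WNT11, a Wnt ligand (1.13, SE 0.68, adjusted p = 0.88), and BMP4, a TGF-β family ligand (0.86, SE 0.41, 0.88). WNT11 differed between the siRNAs (type 2 minus type 1, 1.96, SE 0.31, adjusted p = 0.0131). It stood at 6.51, 5.94 and 21.6 CPM in BT483 with control, type 1 and type 2, and at 0.952, 0.926 and 3.78 CPM in T47D-TamR, so that of the NLK siRNA libraries only those with type 2 lay above control. The other list gene called between the siRNAs was YWHAQ, a 14-3-3 protein of the family that retains FOXO and YAP1 in the cytoplasm (-0.79, SE 0.14, adjusted p = 0.0283), with 404.4, 400.7 and 252.3 CPM in BT483 and 325.8, 337.4 and 179.0 CPM in T47D-TamR. The calls were thus 1 of 20 Wnt targets, 1 of 19 FOXO regulators and 0 in each other list, against 0.47% of all genes. RNF138, a ubiquitin ligase known to act with NLK on TCF/LEF, and STK4, a Hippo kinase, came closest below the threshold (-0.98, adjusted p = 0.0505, and -0.56, adjusted p = 0.0827). APC, a scaffold of β-catenin destruction, had the lowest knockdown value of the partners (-0.74, SE 0.23, adjusted p = 0.88). It stood at 44.2, 45.7 and 39.3 CPM in BT483 and at 27.6, 11.3 and 12.6 CPM in T47D-TamR (control, type 1, type 2), and the difference between lines was 1.05 (SE 0.31, adjusted p = 1). APC was as low in T47D-TamR with tamoxifen (11.6 CPM in the siRNA arm and 15.3 CPM in the drug arm) and with VX-702 (14.2 CPM), against 27.7 CPM with DMSO.

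With tamoxifen the FOXO targets had 18 of 27 positive differences (median 0.03), where all genes had 52.7% (median 0.02). PIK3IP1, an inhibitor of PI3K, had the highest value of its list among well-expressed genes (0.59, SE 0.17, adjusted p = 0.33), with 18.6 against 10.6 CPM in BT483, 13.3 against 9.28 CPM in the T47D-TamR siRNA arm and 12.8 against 9.41 CPM in the drug arm. FBXO32, a muscle-atrophy ubiquitin ligase and classical FOXO target, followed (0.56, SE 0.21, adjusted p = 0.6), at 96.5 against 54.7, 60.6 against 45.9 and 82.0 against 59.9 CPM. In both genes the library with tamoxifen was the higher in each of the 3 pairs, as in 16.3% of all genes. Both were picked by the fit over these same pairs, so this is no separate evidence. The lowest values of the list were those of RICTOR, a subunit of mTORC2 (-0.65, SE 0.20, adjusted p = 0.426), and CCNG1, cyclin G1 (-0.39, SE 0.15, adjusted p = 0.606). RICTOR stood at 67.8 against 61.6 CPM in BT483, 10.5 against 23.1 CPM in the T47D-TamR siRNA arm and 10.5 against 20.7 CPM in the drug arm. CCNG1, picked in the same way, was lower with tamoxifen in each pair, as were 12.7% of all genes. It stood at 42.2 against 61.1, 84.9 against 121.2 and 101.3 against 109.8 CPM. Wnt targets had 8 of 20 positive in the fit over both lines (median -0.15). By pair, 4 of the 13 with an average log2 CPM of at least 1 lay above control in BT483 (median -0.18), 10 in the T47D-TamR siRNA arm (median 0.15) and 8 in the drug arm (median 0.04), where 49.0%, 58.5% and 59.4% of all such genes did. For the difference in response between lines, edgeR called 2 of the 20 Wnt targets and 0 genes of any other list, against 0.691% of all genes. These 2 were MYC, a growth-promoting transcription factor (-2.02, SE 0.36, adjusted p = 0.0134), and CCND1, the cyclin of G1 (-1.30, SE 0.26, adjusted p = 0.0321), BT483 minus T47D-TamR. MYC stood at 71.0 CPM without and 19.6 CPM with tamoxifen in BT483, at 7.81 and 10.7 CPM in the T47D-TamR siRNA arm, and at 8.45 and 7.74 CPM in its drug arm.

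Between lines, the FOXO targets showed 18 genes higher and 8 lower in BT483 of 27 tested, with a median of 1.00 where the median over all genes was 0.01 and 35.6% of all genes were called higher and 35.1% lower. IRS2, an insulin receptor adaptor that FOXO1 is known to induce, stood at 10.6 to 16.0 CPM in BT483 and 0 to 0.347 CPM in T47D-TamR (adjusted p = 1.16e-07), and SESN3, a stress-induced sestrin, at 2.71 to 5.62 and 0 to 0.251 CPM (adjusted p = 3.72e-07). BCL6, a transcriptional repressor, and CITED2, a coactivator-binding protein, were lower in BT483 (-2.001, SE 0.35, adjusted p = 0.00215, and -1.70, SE 0.13, adjusted p = 2.92e-07). Of 19 FOXO regulators 7 were higher and 7 lower (median -0.04), and PDPK1, a kinase that activates AKT, was higher in BT483 (0.87, SE 0.10, adjusted p = 1.51e-05).

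Wnt targets showed 12 higher and 1 lower of 19 (median 1.31). BMP4 was the highest (5.50, SE 0.33, adjusted p = 6.05e-08), followed by TNFRSF19, a Wnt-induced receptor (5.01, SE 0.45, adjusted p = 1.66e-06). The lower gene was AXIN2, a feedback inhibitor of the pathway and a standard readout of β-catenin (-1.85, SE 0.28, adjusted p = 0.000118), at 1.03 to 2.20 CPM in BT483 and 4.84 to 7.77 CPM in T47D-TamR. TCF/LEF partners had 6 higher and 9 lower of 20 (median -0.22). Within them the β-catenin coactivator BCL9 was higher in BT483 (1.99, SE 0.12, adjusted p = 6.51e-08) and PYGO1, the plant homeodomain protein that binds BCL9, was lower (-5.31, SE 0.47, adjusted p = 2.67e-06). Over all genes 35.6% were called higher and 35.1% lower.

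YAP/TEAD targets showed 5 higher and 9 lower of 19 (median -0.17), and Hippo genes with YAP partners 7 higher and 10 lower of 22 (median -0.20), beside the same 35.6% and 35.1% of all genes. ANKRD1, a widely used YAP readout, stood at 0.0566 to 0.323 CPM in BT483 and 8.36 to 26.0 CPM in T47D-TamR (adjusted p = 4.99e-09), and FJX1, a relative of the fly protein four-jointed, at 11.2 to 21.9 and 84.1 to 156.2 CPM (adjusted p = 8.39e-09). NUAK2, a kinase related to AMPK, was higher in BT483 (3.41, SE 0.27, adjusted p = 4.45e-07). WWTR1, the YAP1 paralogue also called TAZ, was lower in BT483, as YAP1 was (-2.38, SE 0.15, adjusted p = 8.7e-08). TEAD2, a DNA-binding partner of YAP1, was higher in BT483 (3.59, SE 0.14, adjusted p = 2.58e-09), and VGLL1, which competes for TEAD, was lower (-6.92, SE 0.43, adjusted p = 3.28e-05).

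Genes most like each of the factors were sought over the 11 libraries, after the mean of each context was subtracted (BT483, T47D-TamR siRNA arm, drug arm), among 12252 or 12253 genes at 5 CPM or more. The points share library depth and scaling, and the correlations are descriptions only. YAP1 was most like SUDS3P1 and TNPO3 (Pearson r = 0.985 and 0.984), TCF7L1 like RNASEH1 and ITGB5 (0.969 and 0.959), and TCF7L2 like AC009053.1 and SPRY1 (0.954 and 0.953). FOXO1 was most like MAPK11 and CRISPLD2 (0.978 and 0.959), FOXO3 like GLUD1P3 and RAB26 (0.956 and 0.922), FOXO4 like COA3 and PPOX (0.942 and 0.937), and TCF7 like CHIC2 and GCDH (0.933 and 0.923).

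In GRCh38 (GENCODE 29) the genes lie on chromosome 5 from 134114711 to 134151865 (TCF7), chromosome 2 from 85133410 to 85310388 (TCF7L1), chromosome 10 from 112950250 to 113167678 (TCF7L2) and chromosome 4 from 108047545 to 108168956 (LEF1). FOXO1 lies on chromosome 13 from 40469953 to 40666597, FOXO3 on chromosome 6 from 108559835 to 108684774, FOXO4 on chromosome X from 71096197 to 71103535 and YAP1 on chromosome 11 from 102110461 to 102233423. LEF1 and FOXO1 are on the minus strand and the others on the plus strand.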

How the data were processed

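Per the labels' protocols, stranded poly(A) libraries of 11 samples were read from both ends. The authors deposited raw read counts per gene symbol and log2(TPM + 1) values per library, and 1 further table of log2 TPM values normalized across libraries. Per the submitters' processing notes the build was GRCh38. Which aligner, annotation and strand setting were used is not given in the sources used here. Columns were matched to samples by name, with 0 left unmapped. The 8 genes and the 6 lists were chosen with earlier results of these data known.

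Counts were tested with edgeR 4.0.16 in R 4.3.3 (TMM, filterByExpr, robust quasi-likelihood F test, 2-sided, Benjamini-Hochberg over all genes, threshold 0.05), in 6 tests across genes. Knockdown and tamoxifen were fitted over all 11 libraries with the context as block and VX-702 as its own term. Knockdown and tamoxifen were also fitted per line, and the siRNA difference with an added term for type 2. Line was fitted over the 8 siRNA libraries, blocked by condition. Each group holds 1 library, so the other line, siRNA or pair serves as the replicate, and each lone library is taken to vary as the rest do. SE is the log2 difference divided by the square root of F. Comparisons with DMSO are 1 library against 1, over genes with an average of 5 CPM or more. TPM was computed from the deposited log2 values. Ratios carry exact 95% intervals (binomial on the 2 counts), which cover counting error only: without molecular identifiers, reads copied by PCR are not independent. Totals were 14637083 to 26915863 counts.

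Named genes were NLK, the 8 factors, and of each list and comparison up to 2 highest and 2 lowest members by log2 difference with an average log2 CPM of at least 1, as well as the 2 genes most like each factor. YWHAQ, WNT11, RNF138, STK4, MYC and CCND1 are among those. 1 result under this rule is left out here. SKP1 and FOXO3B are named for their overlap or likeness in sequence. The script was tested on simulated data. Alternatives were DESeq2 size factors, DESeq2 1.42.0, limma 3.58.1 on the normalized log2 TPM table, no filter, at least 10 counts in every library, no block, the siRNA libraries only, and leaving out each library. Each siRNA alone and the contrast of the arms were added after seeing the data.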

Additional observations from a re-analysis of the deposited data

How the results depend on the processing

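No group has a replicate of its own, so every call rests on 1 library per group. The 8 factors had 0 calls for knockdown, tamoxifen and both differences between lines under every alternative run, and 5 to 6 for line, with 1 library left out included. For the siRNA difference DESeq2 called 1, and leaving out libraries gave 0 to 1.

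Counts over all genes moved more. Knockdown (1 gene) gave 249 without a filter, 6 with DESeq2, 227 for type 2 alone, and 0 with at least 10 counts, limma, no block or the siRNA libraries only. Tamoxifen (10 genes) gave 513 without a filter, 120 with DESeq2, and 0 with at least 10 counts, limma or no block. The knockdown difference between lines (0) gave 21 without a filter. The tamoxifen difference (166) gave 502 without a filter, 328 with DESeq2 and 1 with limma, and the siRNA difference (113) gave 339, 354 and 0, and 50 with at least 10 counts. Leaving out each library gave 0 to 2, 0 to 81, 0 to 5, 0 to 271 and 0 to 406 genes, in the same order, and 14535 to 15363 for line (15543). The cause was not tested.

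Differences near 0 changed sign. With knockdown, TCF7 was -0.13 without the block and -0.14 for type 1 alone, where TCF7L1 was 0.0123 and YAP1 0.0732. With tamoxifen in the siRNA libraries only, TCF7 was 0.0561 and TCF7L1 -0.0316. The line difference of TCF7L1 was 0.0231 with at least 10 counts and 0.0554 with limma. With 1 library left out, knockdown ran from -0.36 to 0.24 for TCF7, -0.12 to 0.14 for TCF7L2 and -0.18 to 0.26 for FOXO4. Tamoxifen ran from -0.50 to 0.0875 for TCF7, -0.0009 to 0.14 for TCF7L1, -0.0017 to 0.29 for TCF7L2, -0.14 to 0.69 for FOXO1, -0.0712 to 0.12 for FOXO3 and -0.0881 to 0.0061 for YAP1. Line ran from -0.12 to 0.008 for TCF7L1. LEF1 lost its line call with limma (0.18, adjusted p = 0.0828). With VX-702, TCF7L1 was 0.52, 0.42 by library total and 0.41 in the normalized log2 TPM table. The differences between lines could not be fitted without the BT483 control library, nor the tamoxifen difference without the BT483 tamoxifen library, and leaving out drug-arm libraries does not apply to line. Line was fitted with the condition as block and knockdown and tamoxifen with the context, and the labels give no replicate numbers to pair beyond that.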
